A study of Homo sapiens with 8 samples.

Results

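In all, 10 genes of the machinery that commits a cell to divide were followed through 8 maps of histone H3 trimethylated at lysine 4 (H3K4me3) in MM1S, an established human multiple myeloma cell line. They are the kinases CDK6 and CDK4, their partner cyclin D3 (CCND3), the retinoblastoma gene RB1, and the inhibitor genes CDKN1A, CDKN1B, CDKN2A, CDKN2B, CDKN2C and CDKN2D. The 10 genes were chosen by name, and each was measured in a window of 5 kb to either side of 1 stated start site on the GRCh37 build. Of the 50523 merged regions of the series, 11 reach into these windows. A merged region is a stretch of the genome called in at least 1 library, joined wherever the lists of different libraries overlap.

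The series has 5 libraries from cells given the solvent DMSO and 3 from cells given KDM5-C70 at 50 uM for 7 days. The labels state no duration for DMSO. All 8 libraries come from the same cell line, and the labels name no genetic change, so the drug is the only labelled difference. KDM5-C70 is a cell-permeable inhibitor of the KDM5 histone demethylases. Nothing in the labels says that the libraries of a group came from separate cultures, so spread and p-values describe these libraries and may be technical.

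In G1, D-type cyclins bind CDK4 or CDK6, and the active pair phosphorylates the RB1 protein, which then releases E2F factors that switch on genes for DNA replication. The INK4 proteins p16 (CDKN2A), p15 (CDKN2B), p18 (CDKN2C) and p19 (CDKN2D) bind CDK4 and CDK6 and block the pairing, while p21 (CDKN1A) and p27 (CDKN1B) bind cyclin and kinase complexes and chiefly restrain CDK2. Myelomas as a class turn on a D-type cyclin, and plasma cells normally leave the cycle with p18 and p27 as brakes. H3K4me3 marks the nucleosomes around the starts of active genes, and KDM5 enzymes remove it.

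Sequences are shown for the promoters that the results turn on. They are the 250 bases before the RefSeq start on GRCh38.p14, read 5′ to 3′ on the gene's own strand. Capitals mark GC boxes, the letters GGGCGG on either strand (overlapping matches run together). CDK6 is shown because its start was called in DMSO and not with KDM5-C70, CDKN1B because its inner bases had the largest log2 change of the 9 regions tested, CDKN1A because every call lies wholly downstream of its start, and CDKN2A and CDKN2B because their windows were almost empty of calls. The CDK6 promoter is that of the outer of 2 RefSeq starts, 2614 bp apart, and this match was not checked on GRCh37 annotation. The CDKN2A promoter is that of the start whose spacing to CDKN2B, 34448 bp, is near the 34180 bp between the stated positions.
CDK6: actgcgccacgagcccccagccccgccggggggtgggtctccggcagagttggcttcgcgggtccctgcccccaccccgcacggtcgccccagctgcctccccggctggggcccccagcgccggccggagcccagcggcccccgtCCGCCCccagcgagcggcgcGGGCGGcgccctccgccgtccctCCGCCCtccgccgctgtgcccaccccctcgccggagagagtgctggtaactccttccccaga
CDKN1B: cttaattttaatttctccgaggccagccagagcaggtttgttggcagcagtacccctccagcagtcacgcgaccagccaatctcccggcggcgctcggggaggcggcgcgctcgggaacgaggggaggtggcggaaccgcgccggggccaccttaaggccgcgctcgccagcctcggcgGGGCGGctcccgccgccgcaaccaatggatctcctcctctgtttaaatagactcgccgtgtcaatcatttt
CDKN1A: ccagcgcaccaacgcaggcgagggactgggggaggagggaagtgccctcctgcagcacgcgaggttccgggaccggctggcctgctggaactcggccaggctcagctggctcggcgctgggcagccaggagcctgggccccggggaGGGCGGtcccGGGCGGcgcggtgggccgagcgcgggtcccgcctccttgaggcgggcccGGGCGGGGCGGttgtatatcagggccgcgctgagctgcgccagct
CDKN2A: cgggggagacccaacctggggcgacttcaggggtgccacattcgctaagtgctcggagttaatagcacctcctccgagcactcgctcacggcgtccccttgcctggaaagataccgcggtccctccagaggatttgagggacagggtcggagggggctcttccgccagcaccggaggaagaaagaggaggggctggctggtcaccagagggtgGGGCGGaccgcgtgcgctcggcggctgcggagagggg
CDKN2B: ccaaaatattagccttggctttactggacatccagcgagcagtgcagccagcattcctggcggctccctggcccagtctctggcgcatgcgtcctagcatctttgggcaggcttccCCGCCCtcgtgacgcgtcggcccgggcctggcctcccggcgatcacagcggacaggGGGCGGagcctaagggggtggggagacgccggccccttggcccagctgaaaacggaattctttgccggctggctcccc

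All 5 sequences hold many CpG pairs. CDK6 has 30 in its 250 bases, CDKN1B and CDKN1A have 27 each, CDKN2A has 20 and CDKN2B has 18, where the median over 34943 RefSeq promoters of the same length is 11. GC boxes number 3 in CDK6, 1 in CDKN1B, 4 in CDKN1A, 1 in CDKN2A and 2 in CDKN2B, and 42.5% of all promoters hold at least 1. The E2F letters TTTCGCGC or TTTGGCGC, searched on both strands, appear in 0 of these and in 0.956% of all promoters. CDKN2A and CDKN2B, though almost without calls, hold more CpG pairs than the median promoter and at least 1 GC box each. These are matches of letters in a short window, and nothing about a factor follows from them.

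Each library has its own deposited list of called regions, and each region holds inner segments, the stretches that the peak caller marked inside it. Called bases measure how far a mark was found, and inner bases measure the part in such segments. The inner share is inner bases as a percentage of called bases. No reads were used, so a height is not measured, and a mark in fewer cells and a weaker mark in every cell cannot be told apart. The lists fall into a pair of sets that the labels do not name. DMSO 1, DMSO 2 and KDM5-C70 1 hold 15323 to 20998 regions over 12.9 to 17.8 Mb, and the other 5 libraries hold 28195 to 37948 regions over 27.5 to 36.7 Mb. Across whole lists the inner share lay between 68.2% and 76.3% in the DMSO libraries and between 56.5% and 58.4% in the KDM5-C70 libraries. Groups were compared with limma over every region called in all 8 libraries (13729 for called bases, 12816 with inner bases). A further limma fit centred the libraries and added a term for the sets. Within each set the values of the groups were only set side by side, without a test. Markers of myeloma cells lie outside the 10 windows and were not checked.

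Over the windows CDK6 had by far the widest mark. Its mean over the 8 libraries was 3563 ± 590.5 bp (SD, n = 8) of called bases. It was wider than CDKN1B, the next in order at 2167 ± 427 bp, in 8 of 8 libraries, by 1396 ± 325 bp. CDK4 followed with 2079 ± 266 bp, CDKN1A with 1986 ± 356 bp, CDKN2D with 1918 ± 441 bp, CCND3 with 1572 ± 637 bp and RB1 with 1476 ± 399 bp. Among these 6 genes no neighbours in the order differed beyond their spread. The mean differences ran from 68.4 bp for CDKN1A over CDKN2D to 346 bp for CDKN2D over CCND3, each smaller than its own SD over libraries. These are sums over windows, and those of CDK4, CDKN2D and CCND3 include a second region, described below. Their regions nearest the start had means of 868, 1172 and 774 bp in DMSO and 978, 1277 and 1111 bp with KDM5-C70. The RB1 region had 1295 and 1778 bp, so the order of the windows is not that of the marks nearest the starts. RB1 stood 1392 ± 507 bp above CDKN2B and was wider in 8 of 8 libraries. CDKN2B had called bases in 2 libraries, and CDKN2A and CDKN2C had 0 in all 8. In called bases the windows of 0 of 10 genes separated the groups (0.896% of like windows around all regions higher, 0.459% lower). In inner bases 1 of 10 did, CDKN1B, which was lower (2.01% lower, 0.0234% higher). So within 5 kb of the stated starts the kinases, the cyclin, RB1, both CIP and KIP genes and 1 of 4 INK4 genes had calls in every library.

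**Figure D1:**
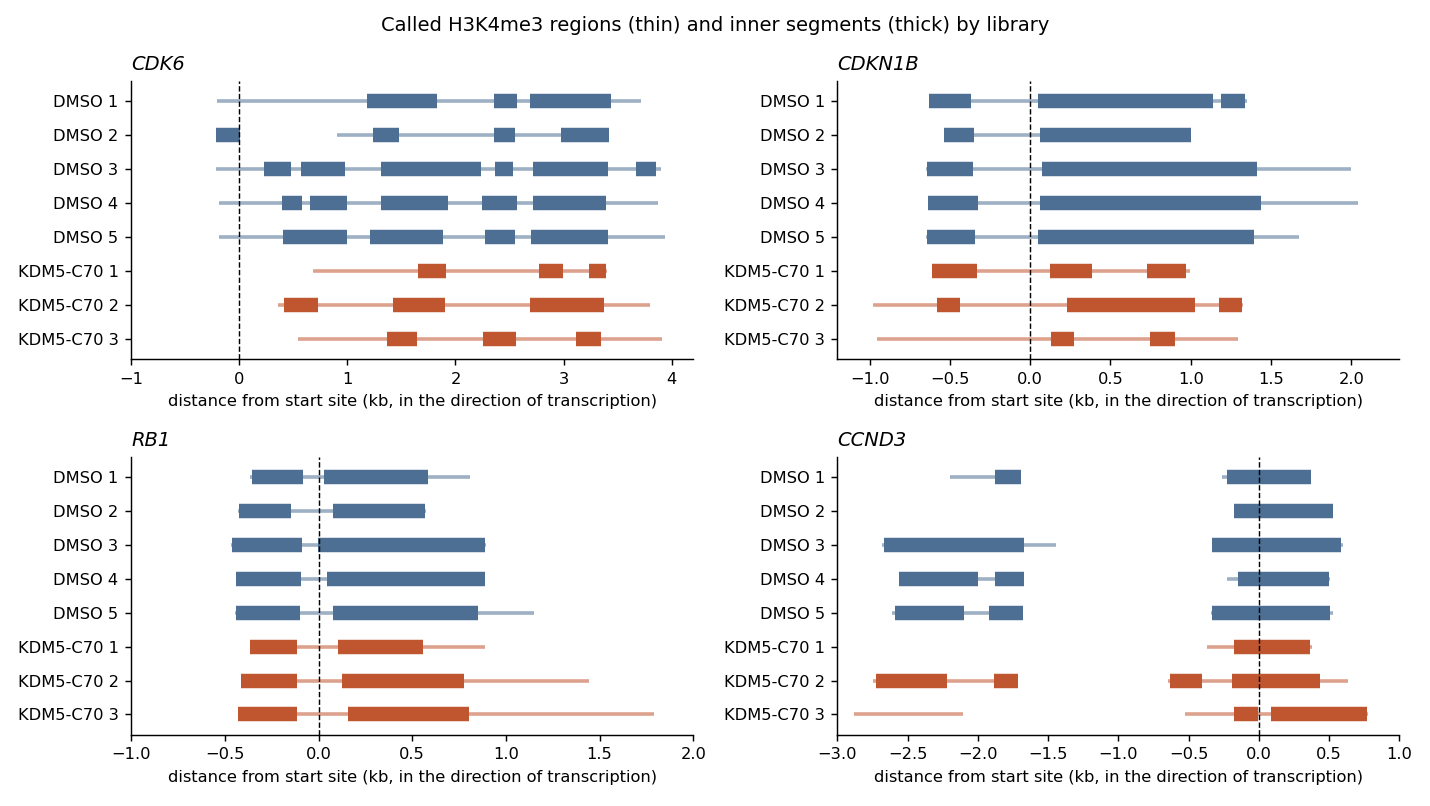
Called regions (thin bars) and inner segments (thick bars) in each of the 8 libraries at CDK6, CDKN1B, RB1 and CCND3, against distance from the start site in kb in the direction of transcription. At CDK6 the bars of all 5 DMSO libraries cross the start site and those of the 3 KDM5-C70 libraries begin downstream of it.

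CDK6, a catalytic partner of the D cyclins, was called up to and across its start in DMSO and only inside the gene with KDM5-C70. The region lies at chr7:92462003-92466157 on the minus strand and runs from 216 bp upstream to 3938 bp downstream of the start. The start site was called in 5 of 5 DMSO libraries and in 0 of 3 KDM5-C70 libraries. DMSO calls reached 210, 216, 215, 186 and 188 bp upstream in libraries 1 to 5. In DMSO 2 that end was a separate call of 219 bp, and the next call there began only 907 bp downstream. KDM5-C70 calls began 678, 362 and 540 bp downstream of the start. From 186 bp upstream to 2 bp downstream, 189 bases were called in 5 of 5 DMSO and 0 of 3 KDM5-C70 libraries. If the stated start is the outer RefSeq one, this stretch falls in the promoter printed above and the first bases of the gene. CDK6-AS1, on the other strand, starts 90 bp downstream of CDK6 on GRCh38 and runs across the same stretch, so which gene the mark belongs to was not tested. At least as many such bases were found in 70 of the 13729 regions called in all 8 libraries (0.51%), and at least 1 such base in 5.38%. Such a count has no test here, and it was chosen after the values were seen.

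Called bases at CDK6 were 3928, 2737, 4119, 4059 and 4127 bp in DMSO 1 to 5 and 2727, 3438 and 3370 bp in KDM5-C70 1 to 3. The groups overlap only through DMSO 2, and within both sets the KDM5-C70 libraries lay lower. The log2 change was −0.25 (SE 0.17, 95% interval −0.64 to 0.14), and limma's adjusted p was 0.994. Even where it began inside the gene, the CDK6 call was among the widest 87 of each list. It ranked 8 of 20998 in DMSO 1, 19 of 32376 in DMSO 3, 10 of 30363 in DMSO 4 and 7 of 28195 in DMSO 5, and 54 of 17977, 64 of 32133 and 87 of 37948 in KDM5-C70 1 to 3. In DMSO 2, where the call was split, it ranked 69 of 15323, so the ranks of the groups are not fully apart.

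Inner bases at CDK6 were 1613, 1104, 2632, 2153 and 2265 bp in DMSO 1 to 5, a mean of 1953 ± 599 bp (SD, n = 5). They were 631, 1490 and 821 bp in KDM5-C70 1 to 3, a mean of 981 ± 451 bp (SD, n = 3). KDM5-C70 2 lies above DMSO 2, so the groups overlap, but within each set every KDM5-C70 library was below every DMSO library. The log2 change was −1.03 (SE 0.33, 95% interval −1.75 to −0.30), with an unadjusted p of 0.00947 and an adjusted p of 0.863 in limma. A fit with centred libraries and a term for the sets gave −0.93 (95% interval −1.27 to −0.60) and an adjusted p of 0.0226, and that call was lost when DMSO 1, 3, 4 or 5 was left out (adjusted p from 0.0503 to 0.0844). In that fit 1.51% of all 12816 regions were called lower and 0.133% higher, and CDK6 was the 1 member of 9 called. The inner share was 41.1%, 40.3%, 63.9%, 53.0% and 54.9% in DMSO 1 to 5 against 23.1%, 43.3% and 24.4% in KDM5-C70 1 to 3. The sets were recognised from the data, and their part in the difference was not tested beyond these within-set values.

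CDK4, the other D-cyclin kinase, had no call at its stated start in any library. Its first region, chr12:58144937-58146085 on the minus strand, begins 145 bp downstream of the start and ends 1293 bp downstream. Called bases were 875, 540, 799, 1087 and 1040 bp in DMSO 1 to 5 and 816, 1102 and 1017 bp in KDM5-C70 1 to 3. The groups overlap, and the log2 change of 0.20 (95% interval −0.43 to 0.84) had an adjusted p of 0.994 in limma. The edge nearest the start was closer in DMSO, at 145, 152, 161, 155 and 153 bp downstream, than with KDM5-C70, at 199, 192 and 250 bp. Those edges do not overlap, which leaves 31 bases from 161 to 191 bp downstream called in all DMSO and no KDM5-C70 libraries. At least that many were found in 2.16% of regions. Inner bases were 701, 199, 795, 1082 and 963 bp in DMSO and 146, 1005 and 829 bp with KDM5-C70, and the interval of the log2 change was wide (−0.39, −1.87 to 1.09). The 2 low values, 199 and 146 bp, are both from libraries with short lists.

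A second CDK4 region, chr12:58148801-58150631, lies 2571 to 4401 bp upstream of the CDK4 start. The RefSeq annotation of GRCh38 places the start of MARCHF9, on the other strand, 2793 bp upstream of CDK4, so this mark may not be that of CDK4. Called bases there were 955 to 1288 bp in DMSO and 1113 to 1283 bp with KDM5-C70. In limma the log2 change was 0.04 (95% interval −0.39 to 0.48) for called and −0.16 (−0.80 to 0.49) for inner bases. The CDK4 window as a whole thus holds a downstream call of its own and a call near a neighbour, and 56.2% of its called bases lie upstream of the start, against 3.56% for CDK6.

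CCND3 encodes cyclin D3, which activates both kinases. Its start-site region, chr6:42015835-42017257 on the minus strand, was called in all 8 libraries and covered the start in each. Called bases were 635, 702, 930, 731 and 870 bp in DMSO 1 to 5 (774 ± 122 bp, SD, n = 5). They were 745, 1284 and 1305 bp in KDM5-C70 1 to 3 (1111 ± 317 bp, SD, n = 3). KDM5-C70 2 and 3 lie above every DMSO library, KDM5-C70 1 lies inside their range, and within both sets KDM5-C70 was higher. Its log2 change was 0.49 (SE 0.28, 95% interval −0.12 to 1.1) with an adjusted p of 0.994 in limma. Where regions within 1000 bp were joined, it was 0.14. Inner bases showed no such pattern. They were 599, 702, 920, 652 and 837 bp in DMSO and 547, 860 and 860 bp with KDM5-C70, a log2 change of 0.01 (95% interval −0.68 to 0.71).

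CCND3 had a lower inner share in every KDM5-C70 library than in any DMSO library. The share was 94.3%, 100%, 98.9%, 89.2% and 96.2% in DMSO 1 to 5 and 73.4%, 67.0% and 65.9% in KDM5-C70 1 to 3. The groups do not overlap, as in 12.2% of all 13729 regions in this direction and 0.204% in the other. Upstream of the start, KDM5-C70 calls reached 368, 647 and 529 bp, where DMSO calls reached 175 to 340 bp, and 28 bases were called in all KDM5-C70 and no DMSO libraries. At least 1 base of that kind was found in 4.8% of regions. TAF8 has a RefSeq edge 489 bp upstream of CCND3's outer end on GRCh38. Which gene the upstream part of these calls belongs to was not tested.

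Another region in the CCND3 window, chr6:42018058-42019489, lies 1448 to 2879 bp upstream and was called in 6 libraries. TAF8 is the RefSeq neighbour on that side, 489 bp from CCND3's outer end on GRCh38, and which gene the mark belongs to was not tested. Called bases were 509, 0, 1238, 887 and 935 bp in DMSO 1 to 5 and 0, 1033 and 771 bp in KDM5-C70 1 to 3. The libraries at 0 are DMSO 2 and KDM5-C70 1, both with short lists. RefSeq also lists CCND3 starts 106880 and 109483 bp downstream of the outer one on GRCh38, outside the window. A region 106447 to 108242 bp downstream of the stated start was called in all 8 libraries with 1003 to 1687 bp in DMSO and 1119 to 1588 bp with KDM5-C70.

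RB1, whose protein is the substrate of cyclin D kinases, carried a mark on both sides of its start. The region is chr13:48877413-48879674 on the plus strand. Called bases were 1174, 1004, 1365, 1332 and 1598 bp in DMSO 1 to 5 (1295 ± 222 bp, SD, n = 5) and 1253, 1862 and 2220 bp in KDM5-C70 1 to 3 (1778 ± 489 bp, SD, n = 3). As at CCND3, KDM5-C70 2 and 3 exceed every DMSO library and KDM5-C70 1 does not, and within both sets KDM5-C70 was higher. Its log2 change was 0.44 (SE 0.24, 95% interval −0.09 to 0.97), with an adjusted p of 0.994 in limma. The wider calls extended downstream, inside the gene. They ended 808, 573, 894, 889 and 1150 bp downstream in DMSO and 887, 1446 and 1791 bp downstream with KDM5-C70. Upstream they ended 365 to 470 bp away in DMSO and 365 to 428 bp away with KDM5-C70. RB1-DT, a noncoding gene on the other strand, starts 49 bp upstream on GRCh38, so the upstream part may belong to either.

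Inner segments at RB1 came as a pair in every library, 1 on each side of the start. They held 827, 769, 1268, 1191 and 1124 bp in DMSO and 708, 951 and 961 bp with KDM5-C70. Those values overlap, and the log2 change was −0.23 (95% interval −0.85 to 0.39). The downstream segment began 28, 79, 46 and 76 bp after the start in DMSO 1, 2, 4 and 5, and 2 bp before it in DMSO 3. With KDM5-C70 it began 103, 125 and 156 bp after, farther than in any DMSO library. Accordingly 24 bases, from 79 to 102 bp downstream, were inner in all DMSO and no KDM5-C70 libraries, and 11.6% of regions have at least as many. The inner share was 70.4%, 76.6%, 92.9%, 89.4% and 70.3% in DMSO and 56.5%, 51.1% and 43.3% with KDM5-C70, without overlap.

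**Figure D2:**
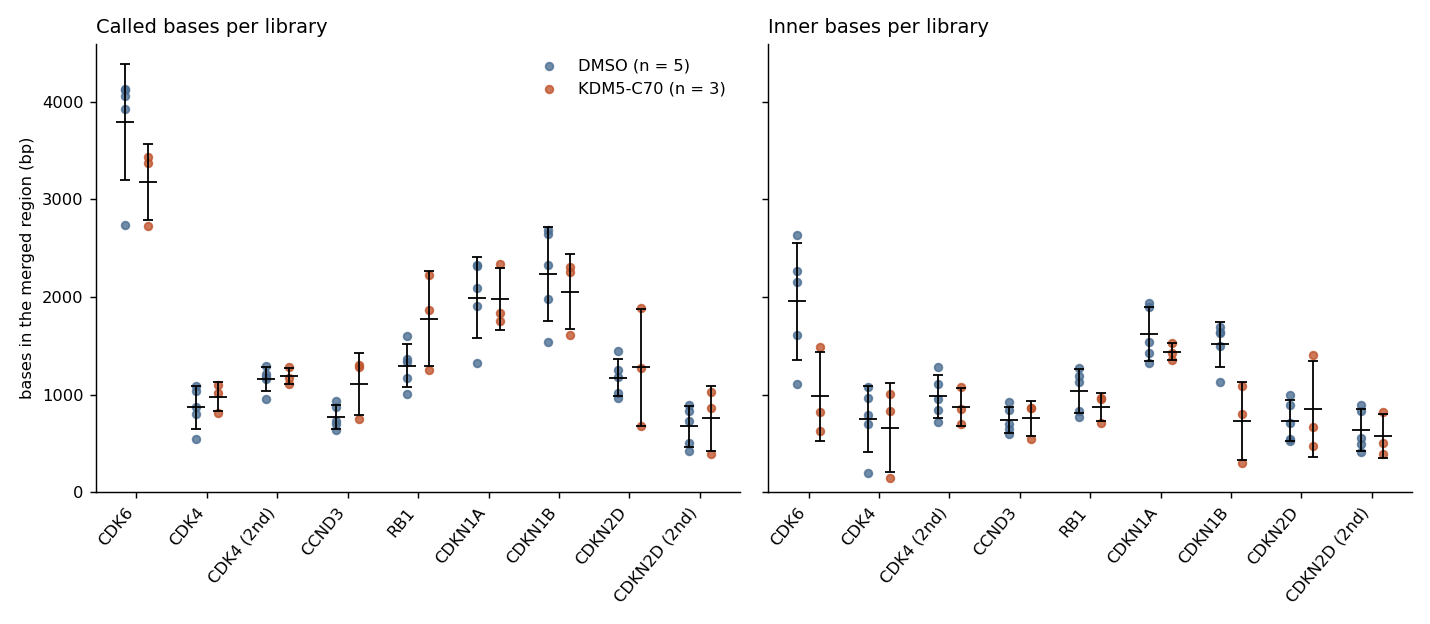
Called bases and inner bases in bp for each region, with a dot per library and the mean ± SD of each group (DMSO, n = 5, and KDM5-C70, n = 3). The inner bases of CDKN1B lie between 1125 and 1687 bp in DMSO and between 303 and 1092 bp with KDM5-C70, the only region of the 9 without overlap.

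CDKN1A encodes p21, the inhibitor that p53 induces. Its mark lay entirely downstream of the start, at chr6:36646495-36648934 on the plus strand, 36 to 2475 bp into the gene. Neither the start site nor any base of the 5 kb before it was called in any library, so if the stated start is the RefSeq one, the printed CDKN1A promoter lies outside every call. DINOL, a noncoding gene on the other strand, starts 2096 bp downstream of CDKN1A's outer RefSeq edge on GRCh38. That edge was not matched to the stated start, so whether DINOL starts inside the called region is not known. Called bases were 1908, 1322, 2328, 2089 and 2316 bp in DMSO 1 to 5 and 1832, 2341 and 1755 bp in KDM5-C70 1 to 3. Means were 1993 ± 413 bp (SD, n = 5) and 1976 ± 318 bp (SD, n = 3). The groups overlap throughout, with a log2 change of 0.01 (SE 0.22, 95% interval −0.48 to 0.49). Inner bases were 1322 to 1935 bp in DMSO and 1359 to 1528 bp with KDM5-C70, a log2 change of −0.16 (95% interval −0.60 to 0.29). In KDM5-C70 3 the call came in 2 pieces, from 83 to 1513 bp and from 2152 to 2475 bp downstream.

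CDKN1B encodes p27, named above with p18 as a brake of plasma cells. Its region, chr12:12869324-12872344 on the plus strand, spans the start in all 8 libraries. Called bases differed little between groups, at 1979, 1542, 2643, 2681 and 2329 bp in DMSO and 1611, 2302 and 2251 bp with KDM5-C70 (log2 change −0.11, 95% interval −0.61 to 0.39, limma adjusted p 0.994). Inner bases separated the groups. They were 1493, 1125, 1627, 1687 and 1645 bp in DMSO 1 to 5, a mean of 1515 ± 230.0 bp (SD, n = 5). In KDM5-C70 1 to 3 they were 797, 1092 and 303 bp, a mean of 731 ± 399 bp (SD, n = 3). Every KDM5-C70 library lay below every DMSO library, though KDM5-C70 2 and DMSO 2 are only 33 bp apart. Over all 12816 regions 2.08% separate in this direction and 0.0234% in the other. The log2 change was −1.23 (SE 0.37, 95% interval −2.04 to −0.41), with an unadjusted p of 0.00639 and an adjusted p of 0.736 in limma, so it did not pass over all regions. Without KDM5-C70 3, the library at 303 bp, the log2 change was −0.68. With centring and a term for the sets the adjusted p was 0.118.

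At CDKN1B the inner segments stood farther from the start with KDM5-C70 on the downstream side. The downstream inner segment began 51, 63, 76, 63 and 48 bp after the start in DMSO and 121, 228 and 127 bp after it with KDM5-C70. That left 45 bases, from 76 to 120 bp downstream, inner in all DMSO and no KDM5-C70 libraries, and 6.44% of regions have at least as many. Downstream inner bases numbered 937 to 1378 bp in DMSO and 512, 946 and 303 bp with KDM5-C70. Upstream they numbered 188 to 309 bp in DMSO and 285, 146 and 0 bp with KDM5-C70. The upstream side faces GPR19, whose nearer RefSeq edge lies 122 bp upstream on GRCh38, so the upstream part cannot be given to CDKN1B alone. The inner share was 75.4%, 73.0%, 61.6%, 62.9% and 70.6% in DMSO and 49.5%, 47.4% and 13.5% with KDM5-C70, without overlap.

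CDKN2D, the gene for p19, was the only INK4 gene called at the stated start in all 5 DMSO libraries. Its region, chr19:10678782-10680667 on the minus strand, covered the start in 5 of 5 DMSO libraries and 2 of 3 KDM5-C70 libraries. In KDM5-C70 3 the call began 154 bp downstream. Called bases were 964, 1017, 1441, 1182 and 1255 bp in DMSO 1 to 5 and 1267, 1886 and 679 bp in KDM5-C70 1 to 3. The KDM5-C70 libraries include both the widest and the narrowest call, and the log2 change of 0.02 (95% interval −0.69 to 0.73) gives no direction. Inner bases were 541, 521, 997, 707 and 896 bp in DMSO and 470, 1408 and 671 bp with KDM5-C70, a log2 change of 0.11 (95% interval −0.78 to 0.99).

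A second CDKN2D region, chr19:10675583-10676683, lies 3052 to 4152 bp downstream, near the RefSeq start of KRI1, 2969 bp downstream on the same strand of GRCh38. Its called bases were 417 to 897 bp in DMSO and 387 to 1031 bp with KDM5-C70, with a log2 change of 0.11 (95% interval −0.78 to 1.00). Its edge nearest the start kept to 3052 to 3069 bp in DMSO and to 3122 to 3131 bp with KDM5-C70. Between these edges, 53 bases were called in 5 of 5 DMSO and 0 of 3 KDM5-C70 libraries, and 1.34% of regions have at least as many.

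CDKN2A encodes p16 and, from a start farther upstream, p14ARF. Its window held 0 called bases in all 8 libraries. The nearest call was 18418, 33674, 9436, 11833 and 12040 bp away in DMSO 1 to 5 and 19223, 11908 and 11918 bp away in KDM5-C70 1 to 3. Upstream, chr9:21986965-21988245, at 11833 to 13113 bp, was called in the 5 libraries with long lists (800 to 1260 bp in DMSO 3 to 5, 1206 and 948 bp in KDM5-C70 2 and 3). A further stretch, 19223 to 20675 bp upstream, was called in DMSO 1, DMSO 3 and KDM5-C70 1 with 698, 607 and 844 bp. The other RefSeq start of CDKN2A lies 20467 bp upstream of the first on GRCh38. The libraries that call either stretch include both groups.

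CDKN2B, the gene for p15, was called in DMSO 1 with 481 bp and in DMSO 2 with 194 bp. The 6 other libraries have 0 called bases in its window, with the nearest call 13562 to 21341 bp from the start. The region is chr9:22008799-22009279, 33 to 513 bp downstream of the start. Both libraries with a call are DMSO libraries with short lists, and the third library with a short list, KDM5-C70 1, has none. The 3 DMSO libraries with long lists have none either, so the presence of the call does not separate the groups.

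CDKN2C, the gene for p18, had no called base within 5 kb of the stated start in any library. RefSeq lists 3 CDKN2C starts, spread over 9500 bp, and which of them the stated position stands for was not settled. The nearest call was 7929 to 8694 bp away in DMSO and 7982 to 8517 bp away with KDM5-C70. It is chr1:51442296-51445043, downstream of the stated start and called in all 8 libraries, with 1206, 1244, 2278, 1952 and 2277 bp in DMSO and 1261, 2695 and 2383 bp with KDM5-C70. If the stated position is the outermost RefSeq start, the other 2, at 7961 and 9500 bp on GRCh38, fall within this region, and otherwise they do not. FAF1, on the other strand, has a RefSeq edge 478 bp upstream of CDKN2C's outer end on GRCh38. Under the first reading, and if that end is the outermost start, the FAF1 edge lies in the window without calls. Which reading holds was not tested. A region 8780 to 9535 bp upstream was called in 6 libraries, with up to 355 bp in DMSO and up to 756 bp with KDM5-C70. A window without a call does not show that the mark is absent, and unmarked DNA and DNA missing from the line cannot be told apart in these lists.

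**Figure D3:**
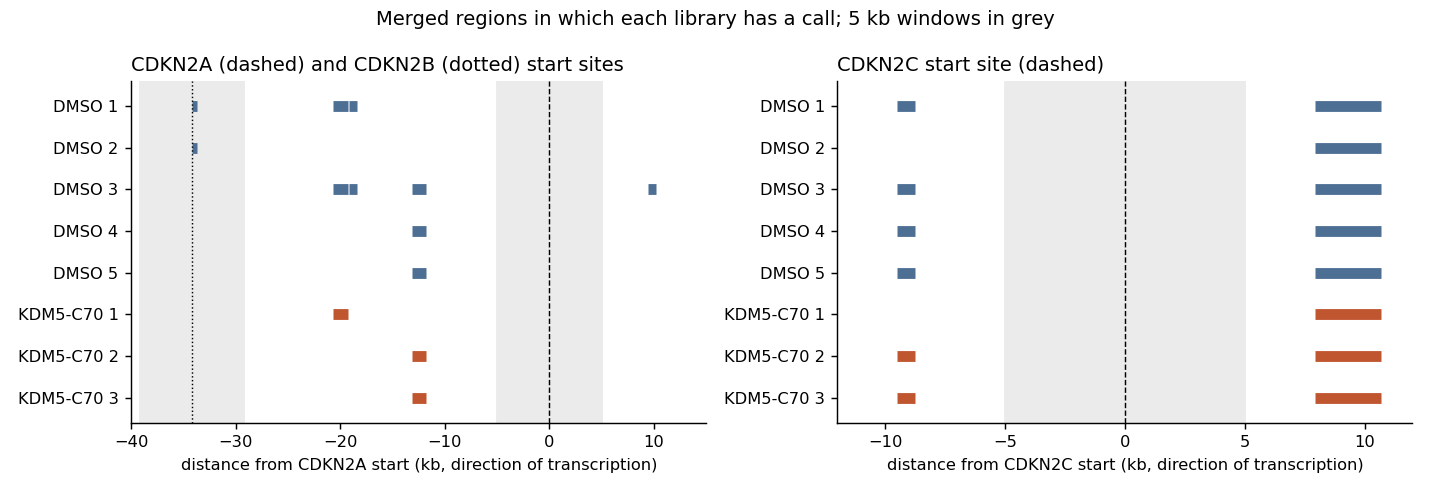
Merged regions with a call in each library around CDKN2A and CDKN2B and around CDKN2C, against distance in kb from the CDKN2A and the CDKN2C start, with the windows of 5 kb to each side in grey. The CDKN2A and CDKN2C windows hold no call in any library, and the CDKN2B window holds calls in DMSO 1 and DMSO 2.

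Put together by measure, in called bases 0 of 9 regions called in all 8 libraries passed limma's adjusted test, as did 0.0% of all 13729 regions in each direction, and 0 of 9 had an unadjusted p under 0.05 (0.954% of all regions higher, 0.809% lower). With centring and a term for the sets 0 of 9 passed as well (0.0364% higher, 0.16% lower). The groups overlapped in 9 of 9 regions, while over all regions they were apart in 0.954% with KDM5-C70 higher and 0.605% with it lower. The members' median log2 change was 0.04 beside 0.14 over all regions, with 7 above and 2 below zero. Centring the libraries moves the median of all regions from 0.14 to −0.02, and the members then split into 3 above and 6 below zero with a median of −0.11. A direction for the small called-width differences of CDK4's second region, CDKN1A and both CDKN2D regions is therefore not given. CDK6 stayed below zero and CCND3 and RB1 above it with and without centring.

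In inner bases 0 of 9 passed the adjusted test (0.0% of all 12816 regions in each direction). With centring and a term for the sets 1 of 9 passed, CDK6, as given above (1.51% lower, 0.133% higher). CDK6 and CDKN1B had an unadjusted p under 0.05, both lower, where 3.63% of all regions were lower and 0.0% higher at that level. The median log2 change was −0.16 beside −0.07 over all regions, with 2 above and 7 below zero. Within both sets the inner bases of 3 of 9 regions, CDK6, CDKN1B and RB1, were lower with KDM5-C70 and 0 higher (17.1% and 1.91% of all regions), and the called bases of CCND3 and RB1 were higher (15.3%) and those of CDK6 lower (3.0%). The inner share was lower without overlap in 3 of 9, CCND3, RB1 and CDKN1B (12.2% of all regions), and within both sets also in CDK6 and CDK4 (25.7% lower and 0.386% higher over all regions). Bases called in all DMSO and no KDM5-C70 libraries occurred in 3 of 9, CDK6, CDK4 and the second CDKN2D region (5.38%), and the reverse in CCND3 (4.8%). Inner bases found in all DMSO and no KDM5-C70 libraries occurred in 6 of 9 regions, CDK6, CDK4, RB1, CDKN1B and both of CDKN2D, with 11 to 59 bases each, and in 28.1% of all regions. The reverse occurred in 0 of 9 and in 1.33% of all regions. Whether the 10 genes differ from other regions was not tested.

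**Figure D4:**
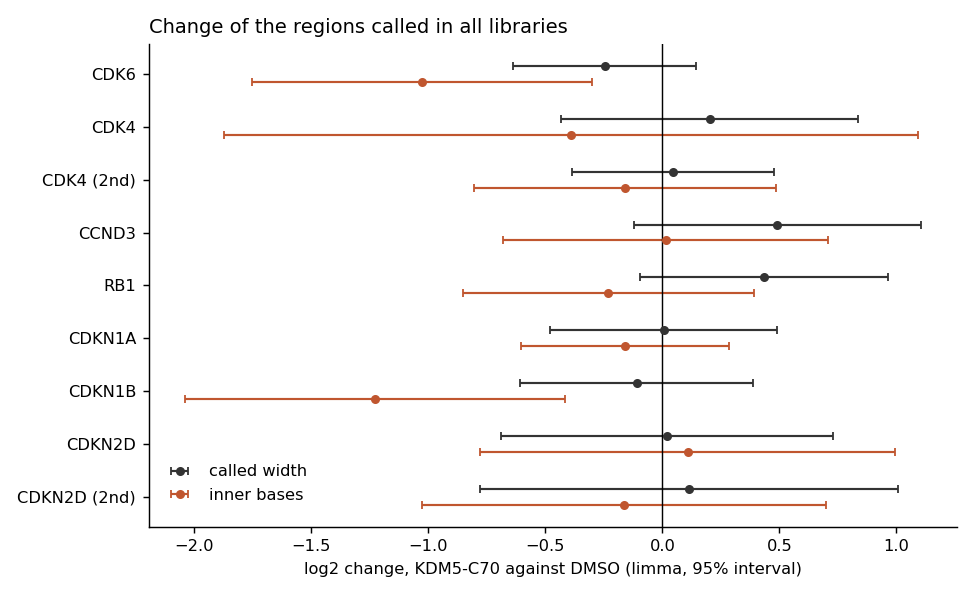
log2 change with KDM5-C70 against DMSO in called bases and in inner bases for the 9 regions called in all 8 libraries, with 95% intervals from limma. For inner bases the intervals of CDKN1B (−2.04 to −0.41) and CDK6 (−1.75 to −0.30) lie below 0, and for called bases every interval includes 0.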

How the data were processed

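H3K4me3 was measured by chromatin immunoprecipitation sequencing in 8 libraries. The submitters' processing notes name the trimmer Trim Galore 0.40, the aligner Bowtie 1.1.2, the peak caller MACS2 2.1.0 and the build GRCh37, besides HOMER 4.8. Settings and any control library were not given in the sources used here. For each library the authors deposited 1 list, called without pooling, with 15 columns: positions of regions and inner blocks, a display score, a fold enrichment as a ratio, and p- and q-values on a −log10 scale. The fold was not used, and the −log10 q-value served only for an alternative with a minimum of 5. Blocks of 1 bp, which close a region, were left out. Depth is unknown, so no counting interval is given.

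Regions on chromosomes 1 to 22 and X that overlapped by at least 1 bp were merged. log2 called or inner bases, without a pseudocount, were tested over all regions with bases in all 8 libraries, with a variance trend, 2-sided, with Benjamini-Hochberg adjustment at 0.05 (limma 3.58.1, R 4.3.3). Regions with a 0 in any library had no test. Alternatives were windows of 2 and 10 kb, a q-value limit, lists of equal length, joining of regions within 1000 bp, a pseudocount of 200 bp with more regions, no variance trend, centring, a term for the sets, a replicate block, and leaving out each library. Python 3.11.15, numpy 2.4.6, pandas 2.3.3 and matplotlib 3.10.9 did the rest. The limma step was tested on simulated data. The simulated libraries held no sets, so that test does not show how the step performs on these lists. All 10 genes are named, with every region in their windows. Of the neighbouring genes, some with an edge near a called region are named. The members and lists were chosen with earlier results of these data known. The inner share, within-set values, bases called in only 1 group, and neighbouring regions outside the windows were added after seeing the data. RefSeq tables of GRCh38.p14 gave strand, neighbours, distances between genes and sequences, and no coordinates were converted. Distances to neighbours were counted from the outer RefSeq edge of each gene, which was not matched to the stated start.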

Additional observations from a re-analysis of the deposited data

Results flagged for a closer look

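In the CDK6 region DMSO 2 had 2737 called bp, far from the other 4 DMSO libraries at 3928 to 4127 bp. It was the 1 value marked among 22 groups of values examined by the same rule, and chance marks about 5% of such groups. DMSO 2 has the shortest list, with 15323 regions, and its call at CDK6 is split into a piece of 2518 bp and a piece of 219 bp.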

How the results depend on the processing

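The members' log2 changes were recomputed on other settings, here without the leave-one-out fits. Of these, 90 kept direction and side of the threshold, 13 turned and 1 newly passed. In limma 0 of 13729 regions passed for called width (242 at an unadjusted p under 0.05) and 0 of 12816 for inner bases (465). Limiting the lists to a −log10 q-value of at least 5 left 10 regions to test, none of them a member, of which 1 passed for called width and 1 for inner bases. Centring gave 22 for inner bases. A term for the sets with centring gave 27 for called width (5 higher, 22 lower) and 211 for inner bases (17 higher, 194 lower), and there CDK6 passed with −0.93. The replicate block, which left out DMSO 4 and DMSO 5, gave 10 for called width (2 higher, 8 lower) and 0 for inner bases. Same-numbered libraries had correlations of their deviations of 0.186, −0.255 and 0.378, and not every library correlated best with its own number. Pairs within a set had 0.186 to 0.378 and pairs across the sets −0.508 to −0.134. The sign thus followed the sets, so these correlations cannot show whether the numbers pair the libraries. The numbers are those of the labels, and region names inside the lists of DMSO 3 to 5 carry the numbers 4 to 6, so the number shared with KDM5-C70 3 is in doubt. Leaving out each library gave 0 for called width and 0 to 1 for inner bases (1 without KDM5-C70 1).

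Genes whose windows separated the groups numbered 1 for called bases (CCND3) and 2 for inner bases (CCND3, CDKN1B) with the q-value limit, each lower with KDM5-C70, although without the limit CCND3 had a called log2 change of 0.49. The limit kept 3028, 7036 and 3661 regions in KDM5-C70 1 to 3 and 6394 to 19917 in the DMSO lists. No share over all windows is given at that limit, so these counts are not read as a drop at the genes. Leaving out each library gave 0 to 1 for called bases (CDK6 lower without DMSO 2, RB1 higher without KDM5-C70 1) and 1 to 3 for inner bases (with CDK6 and CDK4 without DMSO 2, and with CDK6 without KDM5-C70 2). CDKN1B was among them in each of these settings for inner bases. No share over all windows is given for the leave-one-out settings, so these counts are not read as a result about the genes.

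Directions turned for the following log2 changes. Centring gave −0.15 for CDKN1A, −0.11 for the second CDK4 region, −0.045 for the second CDKN2D region and −0.14 for CDKN2D in called bases. The term for the sets with centring gave −0.14, −0.079, −0.070 and −0.11 for these 4, and 0.0064 for the inner bases of the second CDK4 region. Lists of equal length gave −0.093 for CDKN1A. With the replicate block called bases of CDKN1B were at 0.017, and inner bases at 0.044 for CDK4 and 0.17 for the second CDKN2D region. Leaving out each library, called bases ran from −0.023 to 0.091 for the second CDK4 region, −0.14 to 0.085 for CDKN1A, −0.24 to 0.056 for CDKN1B, −0.32 to 0.41 for CDKN2D and −0.17 to 0.54 for its second region. Inner bases ran from −0.10 to 0.23 for CCND3, −0.90 to 0.49 for CDK4, −0.33 to 0.46 for CDKN2D and −0.46 to 0.082 for its second region. The inner bases of CDK6 (−1.38 to −0.76) and CDKN1B (−1.61 to −0.68) stayed below 0. The causes were not tested. In leave-one-out fits of the term for the sets with centring, chosen after seeing the data, the adjusted p ran from 0.00331 to 0.0844 for CDK6 and from 0.0471 to 0.239 for CDKN1B. Depth is unknown, and list length, which differs between the sets, limits what a missing call shows.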

Other observations

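Outside the windows, a region 6195 to 7946 bp downstream of the CDKN1B start, chr12:12876497-12878248, was chosen after its values were seen. Its inner bases were 1407, 1260, 1749, 1586 and 1630 bp in DMSO 1 to 5 and 886, 1086 and 518 bp in KDM5-C70 1 to 3. The groups do not overlap, as in 2.08% of all regions in this direction. The log2 change was −0.94, with an adjusted p of 0.706 in limma.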
